A study of Caenorhabditis elegans with 21 samples.

Results

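The comparison set worms on cantharidin against worms without food, 2 treatments that were each given to C. elegans N2, the wild type laboratory strain, in the last day before collection on day 1 of adulthood. It rests on 6 of the 21 RNA-seq libraries of the series, chosen by their treatment labels. The cantharidin group (libraries 1, 3 and 9) was moved at the L4 stage, the last larval stage, to plates with 200 µM of the drug and collected on the following day. The starvation group (libraries 1, 2 and 3) spent the last 15 h on empty plates. Untreated controls (libraries 4, 6 and 7) are given beside both as the level without either treatment. The food before treatment was E. coli OP50, the temperature 20 °C, and RNA was taken from whole worms. The labels do not say whether the drug plates carried bacteria or a solvent, how many hours the drug was given, or whether the 3 libraries of a group came from separate cultures. The p-values therefore measure only the spread between libraries of a group, estimated over all 21 libraries of the series. Feeding, solvent and drug cannot be told apart in the cantharidin group. Wherever 3 values of a gene are listed, they follow the library numbers 1, 3 and 9 for cantharidin, 1, 2 and 3 for starvation and 4, 6 and 7 for control.

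Cantharidin is the blistering agent of blister beetles and an inhibitor of protein phosphatases of the PP1 and PP2A families. In C. elegans, loss of food is known to turn the intestine to the use of stored fat: lysosomal lipases, acyl-CoA synthetases of β-oxidation and the glyoxylate cycle are induced, in part through the nuclear receptor NHR-49 and the TFEB orthologue HLH-30. The epidermis and intestine of the worm also answer infection, wounding and toxins. Antimicrobial peptides, lectins and lysozymes are made, in part under p38 MAP kinase signalling, and drug-processing enzymes and efflux pumps are induced.

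Tests were run on log2(FPKM + 1) for the 17492 of 46254 gene IDs with 1 FPKM or more in at least 3 of the 21 libraries. FPKM count fragments relative to transcript length and library size, so levels of different genes may be compared per length. With limma on all 21 libraries, 4301 genes (24.6%) were called at an adjusted p under 0.05 between cantharidin and starvation: 2497 (14.3%) were higher in cantharidin and 1804 (10.3%) lower. Without starvation 3, which stood apart from its group, 3730 genes (21.3%) were called, 2171 higher (12.4%) and 1559 lower (8.91%), and 3020 of these were also called with it. Of all calls, 1607 differed at least 2-fold. The split between directions moved with the scaling: 58.1% of calls were higher as deposited, 46.9% under median-of-ratios scaling and 42.3% under quantile normalization. The median difference over all genes moved only between log2 0.05, 0.01 and -0.05. Against control, the split moved further. For cantharidin, 5586 genes were called higher and 1042 lower as deposited. Median-of-ratios scaling gave 3355 and 3455, and quantile normalization 1790 and 2888. For starvation, the counts were 6843 and 3223, then 5013 and 5107, then 3321 and 4581 in the same order. Shares of all genes given below for comparisons with control are as deposited. In 6635 genes (37.9%) the 3 cantharidin and 3 starvation libraries did not overlap, with cantharidin above in 3920 (22.4%) and below in 2715 (15.5%). Of the genes named below and called with all libraries, 155 in all besides nsy-1 and dkf-2, 147 were also called without starvation 3. The exceptions are stated where they stand.

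**Figure D1:**
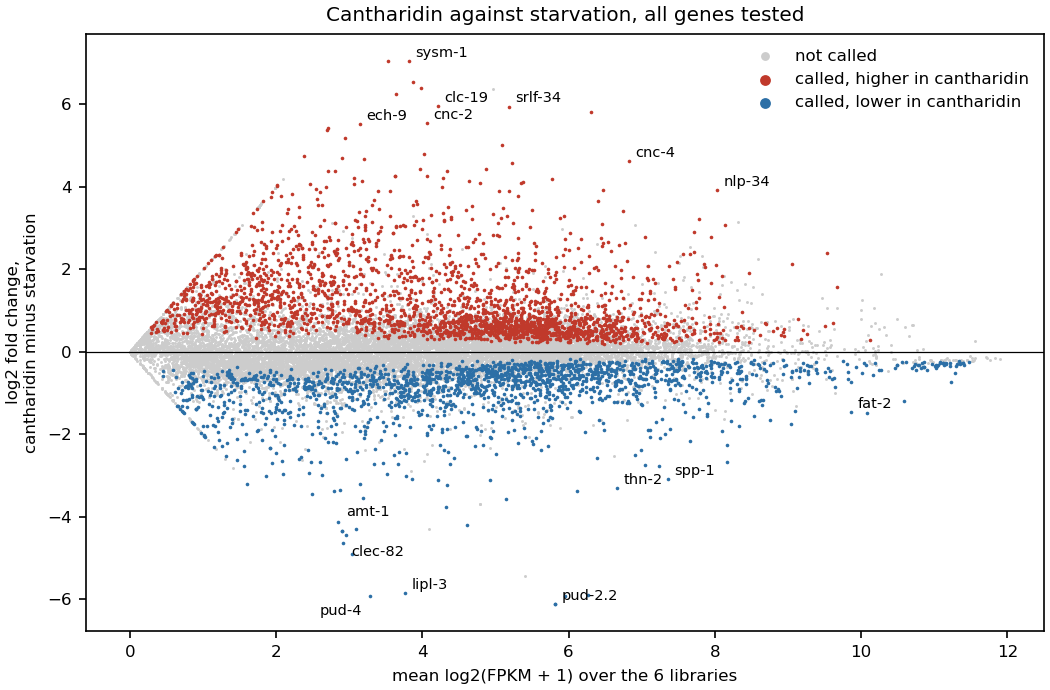
Each point is 1 of 17492 tested genes. The x axis is the mean log2(FPKM + 1) over the 6 libraries and the y axis the log2 fold change, cantharidin minus starvation. Red points (2497) were called higher in cantharidin and blue points (1804) lower, at an adjusted p under 0.05, and grey points were not called. The named genes lie at the edges: sysm-1 at 7.06 and cnc-2 at 5.54, against lipl-3 at -5.84 and pud-2.2 at -6.11.

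The 6 libraries were of like depth, estimated as 0.9461 to 1.2058 of that of control 4. Read totals are not among the values analysed here. Starvation 1 and 2 correlated at 0.975 with each other, while starvation 3 correlated at 0.8427 on average with its own group and lay closest to a library of another treatment (0.8923). The 3 cantharidin libraries had mean correlations of 0.9592 to 0.9683 within their group. Controls 4 and 6 correlated at 0.9861 with each other. Control 7 correlated at 0.9378 on average with its own group and lay closest to a library of another treatment (0.9509). Of 53 defining markers of 10 tissues, 48 reached 1 FPKM in all 6 libraries. The exceptions were act-5, which is listed at 0 in cantharidin 9, and the early embryo genes end-1, med-1, tbx-37 and pes-10, which were below 1 FPKM in at least 5 of the 6 libraries. In whole worms, fewer cells of a type and less RNA per cell cannot be told apart. Some abundant genes are listed at 0 in single libraries, with 45 such values in the 6 libraries, and results that rest on them are left out or marked. For genes near 0 FPKM in 1 group, the size of a fold change depends on the 1 FPKM that was added before taking logs.

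Many of the largest rises in cantharidin over starvation were in genes of antimicrobial defence. Of 104 antimicrobial genes tested, 39 were called higher and 12 lower, with a median difference of log2 0.60 (43 higher and 8 lower without starvation 3), against 14.3% and 10.3% of all genes. The peptide, lysozyme, saposin-like and irg families described below are parts of this list, so their calls are already counted in it. The caenacins, small glycine-rich peptides of the epidermis, rose almost as a whole family: 9 of 10 were called higher and 0 lower, with a median of log2 3.24 (9 higher and 0 lower without starvation 3). Among them cnc-2 stood at 130.4, 106.0 and 104.0 FPKM in the cantharidin libraries, against 1.03, 0.376 and 4.28 FPKM in the starvation libraries. The lowest cantharidin library was above the highest starvation library by far, and the difference was log2 5.54 ± 0.43, adjusted p = 1.95e-07. Its relative cnc-4 reached higher levels, with 618.9, 549.8 and 527.3 FPKM in cantharidin, against 32.2, 14.8 and 22.1 FPKM in starvation. Neither group overlapped the other (log2 4.62 ± 0.37, adjusted p = 2.43e-07). For cnc-6 the values were 49.7, 34.8 and 55.2 FPKM in cantharidin, 1.1, 0.727 and 0.689 FPKM in starvation and 0.513, 0 and 0 FPKM in the controls (log2 4.67 ± 0.19, adjusted p = 2.00e-10). Both the starved worms and the controls had about 1 FPKM of it or less.

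Most epidermal peptides of the nlp-29 group were higher as well. Of 11 such genes, 7 were called higher in cantharidin and 0 lower (7 higher and 0 lower without starvation 3). The peptide gene nlp-29, the usual reporter of fungal infection and wounding, had 682.8, 749.2 and 587.1 FPKM in the cantharidin libraries, against 86.9, 84.6 and 49 FPKM in the starvation libraries. The group means were 673.0 ± 81.5 FPKM in cantharidin and 73.5 ± 21.2 FPKM in starvation (SD, n = 3 each), and the controls, with 72.1, 55.9 and 59.8 FPKM, lay at the starved level (log2 3.22 ± 0.23, adjusted p = 8.55e-08). The member with the highest level in cantharidin, nlp-34, stood at 1214, 1161 and 753.3 FPKM in cantharidin, against 89.7, 31.8 and 101.6 FPKM in starvation (log2 3.92 ± 0.47, adjusted p = 1.64e-05). Against control it was called higher in both treatments, at log2 6.05 (adjusted p = 1.19e-07) in cantharidin and log2 2.13 (adjusted p = 0.00151) in starvation. The gene nlp-31 had 515.5, 552.9 and 402.9 FPKM in cantharidin, against 90.9, 59.4 and 131.6 FPKM in starvation (log2 2.43 ± 0.25, adjusted p = 4.26e-06). Of the 32 fungus-induced peptide genes (fip and fipr), 8 were called higher and 1 lower (9 higher and 1 lower without starvation 3). In all 28.1% were called, beside 24.6% of all genes. Here fip-6 had 178.2, 230.7 and 121.6 FPKM in cantharidin, against 11.5, 2.59 and 21.1 FPKM in starvation; starvation 2 was the lowest of the 6 libraries and starvation 3 the highest of the starved (log2 4.11 ± 0.75, adjusted p = 7.82e-04). Lower in cantharidin was fip-2, which stood at 89.7, 90.7 and 69.1 FPKM in cantharidin, against 164.0, 152.3 and 210.8 FPKM in starvation (log2 -1.07 ± 0.17, adjusted p = 2.38e-04).

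Lysozymes and the infection response genes named irg were also mostly higher. Of 12 lysozyme genes, 7 were called higher and 1 lower, with a median of log2 0.81 (7 higher and 0 lower without starvation 3). The intestinal lysozyme gene lys-2 had 377.2, 274.5 and 392.9 FPKM in the cantharidin libraries, against 18.1, 13.4 and 42.6 FPKM in the starvation libraries (log2 3.91 ± 0.45, adjusted p = 1.01e-05). The controls lay between the treatments, at 50, 62.7 and 166.9 FPKM. Its relative lys-3 had 5.9, 6.02 and 6.34 FPKM in cantharidin, against 0.911, 1.38 and 2.7 FPKM in starvation (log2 1.47 ± 0.24, adjusted p = 3.08e-04). Of 7 irg genes, 4 were called higher and 0 lower (6 higher and 0 lower without starvation 3). A target of p38 signalling, irg-4, stood at 42.6, 46.7 and 25.7 FPKM in cantharidin, 0.445, 0.705 and 0.267 FPKM in starvation and 37.9, 36.3 and 35.4 FPKM in the controls. The cantharidin and control libraries were of like level and the starved ones were below 1 FPKM (log2 4.71 ± 0.53, adjusted p = 8.88e-06). Against control, irg-4 had log2 0.02 (adjusted p = 0.982) in cantharidin and log2 -4.68 (adjusted p = 3.37e-06) in starvation. The same layout was seen for irg-5, another p38 target, with 7.86, 13.3 and 5.18 FPKM in cantharidin, 0.0655, 0.0727 and 0.276 FPKM in starvation and 11.8, 11.2 and 9.51 FPKM in the controls (log2 3.02 ± 0.46, adjusted p = 1.85e-04). It was seen again for irg-8, with 174.7, 179.2 and 194.5 FPKM in cantharidin, 7.97, 3.87 and 9.19 FPKM in starvation and 112.7, 194.5 and 321.6 FPKM in the controls (log2 4.59 ± 0.44, adjusted p = 1.66e-06). The gene irg-2 had another layout, with low controls: 43.5, 32.2 and 63.6 FPKM in cantharidin, 1.78, 1.44 and 3.14 FPKM in starvation and 1.13, 1.02 and 3.95 FPKM in the controls (log2 3.91 ± 0.33, adjusted p = 4.65e-07). For spp-23, a saposin-like gene, starvation and cantharidin were both below the controls, at 27.7, 29.3 and 25.3 FPKM in cantharidin, 2.38, 1.64 and 1.24 FPKM in starvation and 77.7, 91 and 123.0 FPKM in the controls (log2 3.39 ± 0.25, adjusted p = 1.38e-07). The largest rise among the named genes was in sysm-1, which is no member of these lists, with 212.6, 109.3 and 183.2 FPKM in cantharidin, 0, 0.366 and 0.347 FPKM in starvation and 51.8, 32 and 24.8 FPKM in the controls (log2 7.06 ± 0.47, adjusted p = 5.24e-08). Here cantharidin lay above the controls and starvation below them.

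**Figure D2:**
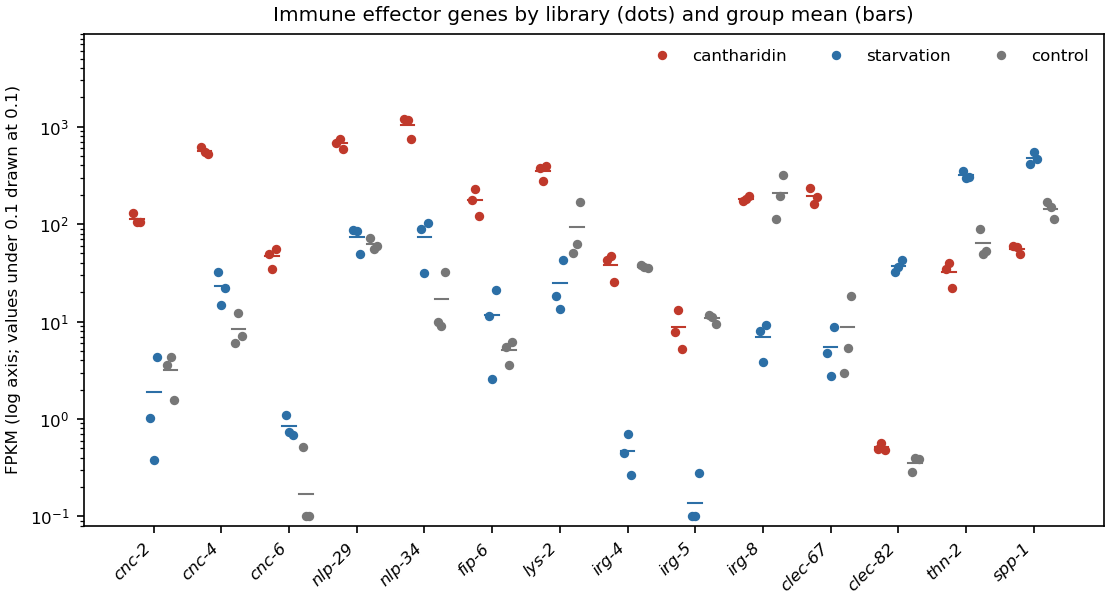
FPKM on a log axis of 14 immune effector genes in the 3 cantharidin (red), 3 starvation (blue) and 3 control (grey) libraries; dots are libraries, bars group means, and values under 0.1 are drawn at 0.1. For cnc-2, cnc-4, cnc-6, nlp-29, nlp-34 and fip-6 the cantharidin dots stand above both other groups, for irg-4, irg-5 and irg-8 the starvation dots stand below both, and for clec-82, thn-2 and spp-1 the starvation dots stand above both.

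A smaller set of immune effectors was lower in cantharidin. Saposin-like genes, which encode pore-forming peptides against bacteria, were split: 4 of 25 were called higher and 7 lower (5 higher and 5 lower without starvation 3). The best known of them, spp-1, had 59.8, 57.8 and 48.9 FPKM in cantharidin, 419.2, 552.0 and 464.8 FPKM in starvation and 167.5, 149.0 and 112.9 FPKM in the controls. Starved worms had the most and cantharidin worms the least, and the 3 groups did not overlap (log2 -3.08 ± 0.21, adjusted p = 4.93e-08). For spp-2 the values were 47.9, 52 and 49.5 FPKM in cantharidin, against 229.6, 243.2 and 413.1 FPKM in starvation (log2 -2.49 ± 0.24, adjusted p = 1.46e-06). The thaumatin-like gene thn-2 stood at 34.3, 40.1 and 22.1 FPKM in cantharidin, 354.6, 294.4 and 306.7 FPKM in starvation and 90.1, 49.5 and 53.2 FPKM in the controls, again highest in starvation (log2 -3.31 ± 0.27, adjusted p = 3.33e-07). C-type lectins, carbohydrate-binding proteins of which many are secreted, were called in both directions: 38 of 158 were called higher and 26 lower (32 higher and 22 lower without starvation 3). Under quantile normalization the counts were 35 and 33. Of those higher, clec-67 had 232.3, 160.7 and 190.5 FPKM in cantharidin, against 4.78, 2.76 and 8.89 FPKM in starvation (log2 5.01 ± 0.54, adjusted p = 5.27e-06). For clec-265 the values were 82.7, 61.3 and 73.4 FPKM in cantharidin, against 3.14, 1.84 and 3.75 FPKM in starvation (log2 4.25 ± 0.43, adjusted p = 3.18e-06). Neither of these lectin genes had groups that overlapped. The lectin gene clec-41 had 189.5, 191.1 and 164.8 FPKM in cantharidin, against 16.3, 9.37 and 38 FPKM in starvation (log2 3.25 ± 0.43, adjusted p = 4.48e-05). Of those lower, clec-82 had 0.495, 0.568 and 0.483 FPKM in cantharidin, 32.3, 36.5 and 42.6 FPKM in starvation and 0.284, 0.395 and 0.387 FPKM in the controls. It was below 1 FPKM in all cantharidin and control libraries, and the difference was log2 -4.65 ± 0.24, adjusted p = 3.58e-09. The lectin gene clec-48 had 9.73, 10.6 and 7.78 FPKM in cantharidin, against 99.3, 111.7 and 160.4 FPKM in starvation (log2 -3.57 ± 0.26, adjusted p = 1.18e-07). For clec-227 the values were 1.25, 1.85 and 0.911 FPKM in cantharidin, against 23.9, 19.2 and 24.5 FPKM in starvation (log2 -3.34 ± 0.21, adjusted p = 2.47e-08), again without overlap.

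Genes that carry immune signals were called in both directions, with smaller differences. Of 17 genes of the p38 pathway and its neighbours, 8 were called higher and 2 lower (8 and 1 without starvation 3). Of all genes, 14.3% were called higher and 10.3% lower. The 2 called lower were nsy-1 (log2 -0.58 ± 0.13, adjusted p = 0.00383) and dkf-2 (log2 -0.29 ± 0.09, adjusted p = 0.0233). Without starvation 3, dkf-2 was not called (log2 -0.19, adjusted p = 0.105). Both calls were lost when only the 2 groups were fitted. The bZIP factor gene cebp-1 had 117.1, 85.2 and 112.6 FPKM in cantharidin, against 31.6, 27.3 and 31.3 FPKM in starvation, and the difference between the treatments was log2 1.76 ± 0.19, adjusted p = 5.19e-06. Its partner nipi-3, a Tribbles pseudokinase gene, had 81.8, 72.3 and 83.5 FPKM in cantharidin, against 26.2, 21.9 and 37.3 FPKM in starvation (log2 1.47 ± 0.16, adjusted p = 5.26e-06). The gene tir-1, which encodes the SARM adaptor upstream of p38, had 42.2, 36.9 and 45.4 FPKM in cantharidin, against 15.4, 11.8 and 23 FPKM in starvation (log2 1.31 ± 0.20, adjusted p = 1.96e-04). The kinase kinase gene mek-1 stood at 79.6, 52.7 and 92.4 FPKM in cantharidin, against 28, 34.2 and 32.1 FPKM in starvation (log2 1.19 ± 0.26, adjusted p = 0.00366). Against control tir-1 was higher in both treatments, by log2 2.26 (adjusted p = 4.02e-07) in cantharidin and log2 0.96 (adjusted p = 0.00107) in starvation. The same held for cebp-1, by log2 2.94 (adjusted p = 1.77e-08) in cantharidin and log2 1.18 (adjusted p = 9.95e-05) in starvation.

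Some genes of the intracellular pathogen response, known for microsporidia and virus infection, were higher in cantharidin. The pals genes are its best known family: 7 of 36 were called higher and 2 lower (8 higher and 0 lower without starvation 3), shares that lie near the 14.3% and 10.3% of all genes. Of these pals-23 had 67.3, 64.2 and 74.2 FPKM in the cantharidin libraries, against 11, 8.57 and 31.8 FPKM in the starvation libraries, with starvation 3 the highest of the starved libraries (log2 2.16 ± 0.46, adjusted p = 0.00287). The relatives pals-24 and pals-16 had differences of log2 2.09 ± 0.40 (adjusted p = 0.00124) and 1.26 ± 0.22 (adjusted p = 5.84e-04). The cullin gene cul-6, a ubiquitin ligase subunit of the same response, had 12.7, 12.7 and 16.9 FPKM in cantharidin, against 3.58, 3.02 and 2.93 FPKM in starvation (log2 1.85 ± 0.20, adjusted p = 5.99e-06). Its adaptor gene skr-3 had 208.7, 226.3 and 250.5 FPKM in cantharidin, against 91.7, 79.8 and 133.7 FPKM in starvation (log2 1.19 ± 0.21, adjusted p = 6.76e-04). For eol-1 the values were 5.07, 3.87 and 7.21 FPKM in cantharidin, against 0.569, 0.874 and 0.974 FPKM in starvation (log2 1.79 ± 0.22, adjusted p = 1.93e-05). F-box A genes, a large family of presumed substrate adaptors of such ligases, were far more often higher than lower: 51 of 139 were called higher and 6 lower (54 higher and 7 lower without starvation 3). Quantile normalization gave 43 higher and 15 lower. Within this family fbxa-50 had 10.8, 5.13 and 8.6 FPKM in cantharidin, against 1.02, 0.0939 and 0.527 FPKM in starvation (log2 2.56 ± 0.28, adjusted p = 7.10e-06). For fbxa-163 the values were 11.3, 13.3 and 14.1 FPKM in cantharidin, against 0.886, 0.918 and 2.24 FPKM in starvation (log2 2.61 ± 0.21, adjusted p = 2.43e-07). Lower was fbxa-108, with 14, 17.4 and 17.7 FPKM in cantharidin, against 30.1, 26.1 and 30.8 FPKM in starvation (log2 -0.79 ± 0.13, adjusted p = 4.40e-04). Of 27 chitinase-like genes, 0 were called higher and 4 lower (0 higher at an unadjusted p under 0.05). The gene chil-23 had 2.19, 6 and 3.91 FPKM in cantharidin, against 14.3, 15.2 and 22.5 FPKM in starvation (log2 -1.91 ± 0.34, adjusted p = 6.20e-04).

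Drug-processing genes differed family by family. Their counts are to be read against 14.3% of all genes called higher and 10.3% lower. Cytochrome P450 genes, the first step of drug oxidation, were more often lower in cantharidin: 9 of 66 were called higher and 21 lower (6 higher and 19 lower without starvation 3). The gene cyp-34A9 had 5.22, 7.33 and 4.56 FPKM in cantharidin, 52.1, 63.4 and 68.5 FPKM in starvation and 9.05, 6.74 and 2.79 FPKM in the controls, so that starvation alone stood out (log2 -3.23 ± 0.32, adjusted p = 2.33e-06). Likewise cyp-37A1 had 12.2, 15.1 and 11 FPKM in cantharidin, 72.6, 87.2 and 64.7 FPKM in starvation and 14.1, 10.6 and 12.9 FPKM in the controls (log2 -2.46 ± 0.20, adjusted p = 2.63e-07). Among those higher, cyp-33C8 had 39.7, 37.5 and 52.6 FPKM in cantharidin, 5.5, 6.51 and 5.33 FPKM in starvation and 3.66, 4.42 and 9.07 FPKM in the controls, with cantharidin alone high (log2 2.69 ± 0.22, adjusted p = 3.14e-07). The gene cyp-14A5 had 71.5, 56 and 64.6 FPKM in cantharidin, against 8.88, 8.13 and 21 FPKM in starvation (log2 2.36 ± 0.34, adjusted p = 1.15e-04). Enzymes that conjugate drugs to sugars, the UDP-glucuronosyltransferases, were more often called higher: 18 of 64 were called higher and 9 lower (21 higher and 8 lower without starvation 3). The median of the list was log2 -0.02 with all libraries, 0.19 without starvation 3 and -0.15 under quantile normalization. The largest rise was in ugt-44, with 150.4, 122.6 and 168.5 FPKM in cantharidin, 11.2, 8.31 and 9.58 FPKM in starvation and 11.6, 27.5 and 23.9 FPKM in the controls (log2 3.79 ± 0.30, adjusted p = 2.43e-07). The largest fall was in ugt-17, with 4.27, 7.73 and 4.51 FPKM in cantharidin, 47.3, 54.5 and 59.2 FPKM in starvation and 15.6, 16.9 and 18.5 FPKM in the controls (log2 -3.11 ± 0.24, adjusted p = 1.95e-07). For ugt-16 the values were 19.6, 19.5 and 21.3 FPKM in cantharidin, against 2.45, 1.83 and 4.23 FPKM in starvation (log2 2.51 ± 0.30, adjusted p = 1.75e-05). Glutathione S-transferases were called equally in both directions, 10 higher and 10 lower of 49; under quantile normalization the counts were 10 and 14. Of these, gst-38 had 14.4, 19.6 and 10.5 FPKM in cantharidin, against 0.909, 0.907 and 1.34 FPKM in starvation (log2 2.92 ± 0.31, adjusted p = 4.66e-06). In the other direction gst-34 had 0.394, 0.747 and 0.474 FPKM in cantharidin, against 11.4, 14.2 and 7.82 FPKM in starvation (log2 -2.95 ± 0.28, adjusted p = 1.52e-06). The SKN-1 reporter gene gst-4 was not called, with 30.2, 38.3 and 25 FPKM in cantharidin, against 33.4, 39.1 and 31.4 FPKM in starvation (log2 -0.16 ± 0.16, adjusted p = 0.512).

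ABC transporters, which pump drugs and lipids across membranes, were called higher in 14 and lower in 2 of 48 (16 higher and 1 lower without starvation 3). Under quantile normalization the counts were 12 and 5, with a median of log2 0.11. These counts and those of the P-glycoproteins below are to be read against 14.3% of all genes called higher and 10.3% lower. The transporter gene haf-7 had 45.4, 32.1 and 51.8 FPKM in cantharidin, 4.53, 4.26 and 8.57 FPKM in starvation and 5.42, 6.56 and 6.66 FPKM in the controls. Starved and control worms had like levels and cantharidin worms were above both (log2 2.73 ± 0.21, adjusted p = 1.85e-07). For the peroxisomal transporter gene pmp-1 the values were 56.2, 56.6 and 58.3 FPKM in cantharidin, against 9.81, 7.72 and 17.7 FPKM in starvation (log2 2.26 ± 0.30, adjusted p = 4.26e-05). The transporter gene mrp-4 had 29.7, 19.3 and 32.7 FPKM in cantharidin, against 6.52, 8.59 and 5.65 FPKM in starvation (log2 1.82 ± 0.40, adjusted p = 0.00331). Of 14 P-glycoproteins, 5 were called higher and 0 lower (7 higher and 0 lower without starvation 3). Of these, pgp-3 had 13.3, 12.7 and 12.7 FPKM in cantharidin, against 6.28, 4.61 and 7.05 FPKM in starvation (log2 1.01 ± 0.18, adjusted p = 7.24e-04).

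Many cytosolic chaperones were higher in cantharidin than in starvation, and many were below control in starved worms. Of 54 cytosolic heat shock genes, 25 were called higher and 3 lower (23 higher and 3 lower without starvation 3). Against control, 8 of them were called higher and 6 lower in cantharidin, with 31.9% of all genes higher and 5.96% lower, while 5 were higher and 28 lower in starvation, with 39.1% of all genes higher and 18.4% lower. The small heat shock genes were called in 11 of 14 cases, 8 higher and 3 lower. Among these hsp-43 had 374.4, 355.4 and 301.0 FPKM in cantharidin, 104.7, 104.0 and 45.9 FPKM in starvation and 91.9, 88.5 and 121.9 FPKM in the controls. Starvation 3 was the lowest library (log2 2.09 ± 0.23, adjusted p = 6.22e-06, and log2 1.70, adjusted p = 5.56e-07 without it). For hsp-16.1 the values were 39.1, 38.7 and 53.1 FPKM in cantharidin, 6.62, 10.7 and 13.3 FPKM in starvation and 21.4, 28.5 and 34.7 FPKM in the controls (log2 2.02 ± 0.21, adjusted p = 4.30e-06). The gene hsp-16.48 had 27.5, 26.4 and 39.2 FPKM in cantharidin, against 5.1, 8.84 and 14.2 FPKM in starvation (log2 1.70 ± 0.24, adjusted p = 1.00e-04). Each of these symbols stands for 2 near-identical IDs between which reads may be shared, and 1 of the 2 is given. The related hsp-16.2 had 4.57, 3.89 and 6.58 FPKM in cantharidin, against 0.447, 1.32 and 2.03 FPKM in starvation (log2 1.45 ± 0.25, adjusted p = 4.95e-04), a call that was lost when only the 2 groups were fitted. Of the 3 lower ones, hsp-12.3 had 4.33, 4.08 and 2.46 FPKM in cantharidin, against 8.24, 8.21 and 9.88 FPKM in starvation (log2 -1.10 ± 0.22, adjusted p = 0.00162). The inducible hsp-70 was not called, at 2.45, 2.34 and 2.74 FPKM in cantharidin, against 1.41, 1.01 and 1.34 FPKM in starvation (log2 0.64 ± 0.35, adjusted p = 0.194).

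Of 24 genes of the endoplasmic reticulum stress response, 10 were called higher and 0 lower (11 higher and 0 lower without starvation 3). The secreted neurotrophic factor gene manf-1 had 231.0, 213.8 and 224.8 FPKM in cantharidin, against 139.5, 118.5 and 165.0 FPKM in starvation (log2 0.67 ± 0.10, adjusted p = 1.18e-04). The BiP gene hsp-4, the usual reporter of the response, had 302.3, 288.9 and 297.2 FPKM in cantharidin, against 267.1, 202.4 and 147.9 FPKM in starvation (log2 0.56 ± 0.17, adjusted p = 0.0237). This call was lost without starvation 3, at log2 0.35, adjusted p = 0.111. The mitochondrial stress factor gene atfs-1 was higher, with 106.3, 98.5 and 107.5 FPKM in cantharidin, 48.7, 49.4 and 54.1 FPKM in starvation and 63.4, 73 and 57 FPKM in the controls (log2 1.02 ± 0.11, adjusted p = 3.94e-06). Of the mitochondrial chaperones, hsp-60 had 189.5, 167.1 and 180.1 FPKM in cantharidin, 112.9, 111.2 and 74.3 FPKM in starvation and 343.1, 354.3 and 412.0 FPKM in the controls, above starvation and below control (log2 0.86 ± 0.14, adjusted p = 2.30e-04). The chaperone gene hsp-6 had 333.9, 302.0 and 329.8 FPKM in cantharidin, against 306.2, 334.4 and 243.2 FPKM in starvation and was not called (log2 0.14 ± 0.10, adjusted p = 0.341). Of 12 mitochondrial stress genes, 2 were called higher and 4 lower. The import channel gene timm-23 had 193.6, 183.1 and 167.4 FPKM in cantharidin, against 248.0, 259.0 and 286.9 FPKM in starvation (log2 -0.54 ± 0.08, adjusted p = 1.82e-04).

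Genes of the metal and osmotic stress list were called in both directions, 4 higher and 5 lower of 19 with a median of log2 0.18 (5 higher and 4 lower without starvation 3). The metallothionein genes mtl-1 and mtl-2 were lower in cantharidin. Of the pair, mtl-1 had 4.21, 6.33 and 2.28 FPKM in cantharidin, 28.5, 28.6 and 84.5 FPKM in starvation and 2.2, 0 and 0.716 FPKM in the controls (log2 -3.07 ± 0.48, adjusted p = 2.26e-04). For mtl-2 the values were 38.5, 44.9 and 29.5 FPKM in cantharidin, 108.4, 142.8 and 197.9 FPKM in starvation and 204.2, 198.5 and 129.5 FPKM in the controls (log2 -1.94 ± 0.30, adjusted p = 1.74e-04). Starvation was the high group for mtl-1, and cantharidin the low group for mtl-2. The cadmium-responsive gene cdr-4 was higher, with 95.3, 92.3 and 113.6 FPKM in cantharidin, 24.3, 18.4 and 19.8 FPKM in starvation and 21.4, 20.1 and 34.7 FPKM in the controls (log2 2.22 ± 0.16, adjusted p = 1.16e-07). So was numr-1, a nuclear protein gene induced by metals, with 33.8, 21.2 and 41.1 FPKM in cantharidin, against 0.691, 0.409 and 0.532 FPKM in starvation (log2 4.37 ± 0.32, adjusted p = 9.56e-08); 2 near-identical IDs carry this symbol and 1 of them is given. The stress protein gene lea-1 had 220.7, 225.7 and 206.1 FPKM in cantharidin, 568.9, 589.4 and 413.8 FPKM in starvation and 92.4, 97.7 and 97.4 FPKM in the controls (log2 -1.25 ± 0.13, adjusted p = 4.68e-06). Of 27 antioxidant genes, 1 was called higher and 8 lower. The 3 catalase genes were among them: ctl-1 had 53.3, 44.7 and 48.7 FPKM in cantharidin, 78.3, 80 and 86.7 FPKM in starvation and 26, 27.4 and 24.6 FPKM in the controls (log2 -0.73 ± 0.10, adjusted p = 5.95e-05). The others differed by log2 -0.70 ± 0.15 (adjusted p = 0.00274) for ctl-2 and -0.92 ± 0.09 (adjusted p = 1.20e-06) for ctl-3. The 1 member called higher was skn-1, the gene of the oxidative stress factor, with 129.7, 118.4 and 140.3 FPKM in cantharidin, against 83.4, 89.6 and 101.9 FPKM in starvation (log2 0.50 ± 0.10, adjusted p = 0.00251). That call was lost when only the 2 groups were fitted.

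Genes that break down fat for fuel were more often lower than higher in cantharidin against starvation. Of 85 lipases, acyl-CoA synthetases and fat oxidation genes, 10 were called higher and 25 lower (9 higher and 22 lower without starvation 3). Against control, 24 were higher and 18 lower in cantharidin, where all genes had 31.9% higher and 5.96% lower. In starvation 38 were higher and 19 lower, where all genes had 39.1% higher and 18.4% lower. The lysosomal lipase gene lipl-3, a target of HLH-30 in fasting, had 0.795, 0.962 and 0.646 FPKM in cantharidin, 93.1, 115.7 and 98.7 FPKM in starvation and 0.182, 0.484 and 0.296 FPKM in the controls. It was below 1 FPKM in all cantharidin and control libraries, and the difference was log2 -5.84 ± 0.16, adjusted p = 1.69e-12. The acyl-CoA synthetase gene acs-2, a target of NHR-49, had 115.2, 195.5 and 123.5 FPKM in cantharidin, 430.7, 487.3 and 717.6 FPKM in starvation and 6.22, 6.11 and 17.5 FPKM in the controls. Here the cantharidin libraries lay between starvation and control with no overlap (log2 -1.91 ± 0.34, adjusted p = 6.84e-04), at log2 3.85 (adjusted p = 3.80e-07) against control, beside log2 5.76 (adjusted p = 3.92e-09) for starvation. The glyoxylate cycle gene icl-1 showed the same order, with 302.8, 328.5 and 236.9 FPKM in cantharidin, 836.6, 1065 and 994.7 FPKM in starvation and 69.6, 66.3 and 119.8 FPKM in the controls (log2 -1.74 ± 0.20, adjusted p = 1.07e-05). So did fmo-2, a flavin monooxygenase gene induced by fasting, with 20.7, 17.6 and 18.6 FPKM in cantharidin, 56.2, 127.8 and 53.2 FPKM in starvation and 0.0954, 0.553 and 0.139 FPKM in the controls (log2 -1.89 ± 0.51, adjusted p = 0.0128); this call was lost without starvation 2. The carnitine palmitoyltransferase gene cpt-3 had 0.705, 0.617 and 0.262 FPKM in cantharidin, 6.56, 4.77 and 20.4 FPKM in starvation and 0.246, 0.204 and 0.0343 FPKM in the controls (log2 -2.69 ± 0.45, adjusted p = 4.25e-04).

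A few fat oxidation genes were higher in cantharidin. The enoyl-CoA hydratase gene ech-9 had 61, 47.4 and 70.2 FPKM in cantharidin, 0.294, 0.187 and 0.443 FPKM in starvation and 1.13, 1.38 and 1 FPKM in the controls, cantharidin being the only group above 2 FPKM (log2 5.52 ± 0.26, adjusted p = 1.77e-09). The acyl-CoA oxidase gene acox-1.5, a peroxisomal enzyme of β-oxidation, had 83.7, 82.2 and 92.2 FPKM in cantharidin, 9.74, 8.79 and 15.8 FPKM in starvation and 12.4, 18 and 30.8 FPKM in the controls (log2 2.84 ± 0.33, adjusted p = 1.11e-05). Of the regulators, nhr-49 had 80.8, 78.3 and 86.5 FPKM in cantharidin, against 86, 87.7 and 105.2 FPKM in starvation and was not called (log2 -0.18 ± 0.08, adjusted p = 0.142). The TFEB gene hlh-30 had 88.8, 102.9 and 80.4 FPKM in cantharidin, 135.6, 140.4 and 160.4 FPKM in starvation and 38.1, 38.6 and 46.6 FPKM in the controls (log2 -0.68 ± 0.10, adjusted p = 1.24e-04).

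**Figure D3:**
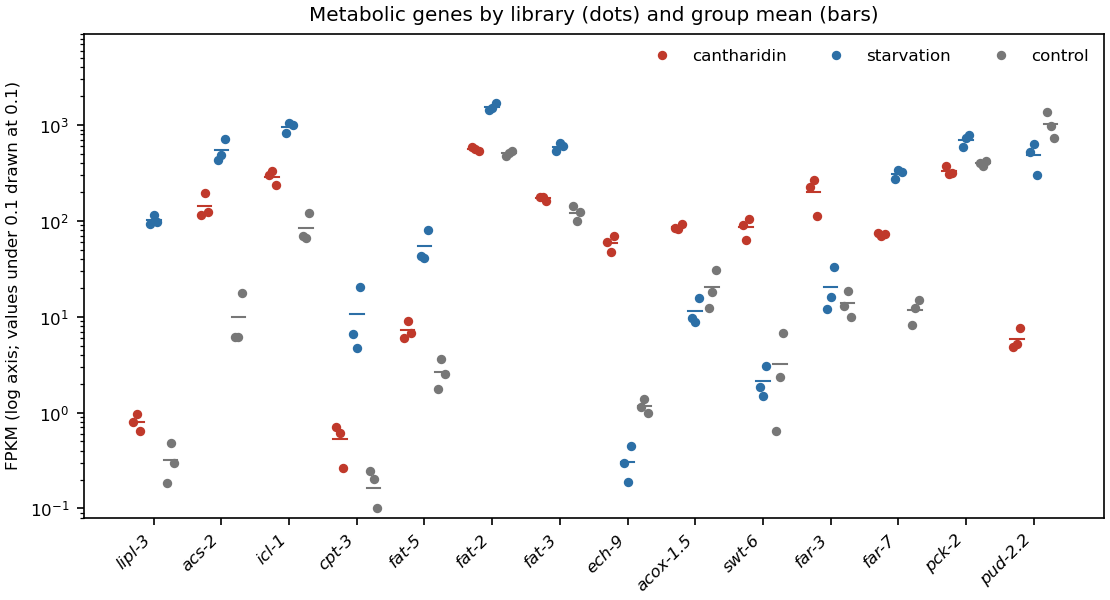
FPKM on a log axis of 14 metabolic genes in the 3 cantharidin (red), 3 starvation (blue) and 3 control (grey) libraries; dots are libraries, bars group means, and values under 0.1 are drawn at 0.1. For lipl-3, acs-2, icl-1, cpt-3, fat-5, fat-2, fat-3 and far-7 the starvation dots are the highest, for ech-9, acox-1.5, swt-6 and far-3 the cantharidin dots are, and pud-2.2 is lowest in cantharidin.

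Of the 7 fat genes for desaturases, which put double bonds into fatty acids, fat-1 to fat-5 were lower in cantharidin and fat-6 and fat-7 were not called. Of 44 genes of fatty acid synthesis, desaturation and elongation, 3 were called higher and 12 lower (5 higher and 12 lower without starvation 3). All genes had 14.3% higher and 10.3% lower, and the median of the list was log2 -0.01. Among the abundant polyunsaturated fatty acid enzymes, fat-2 had 585.6, 558.4 and 542.2 FPKM in cantharidin, 1426, 1495 and 1720 FPKM in starvation and 478.8, 510.8 and 536.1 FPKM in the controls. The cantharidin and control libraries lay close together and starvation stood above (log2 -1.45 ± 0.15, adjusted p = 2.78e-06). For fat-3 the values were 177.2, 178.5 and 160.6 FPKM in cantharidin, 540.9, 649.9 and 601.1 FPKM in starvation and 143.1, 98.8 and 124.7 FPKM in the controls (log2 -1.79 ± 0.16, adjusted p = 9.16e-07). The omega-3 desaturase gene fat-1 had 342.1, 336.1 and 318.9 FPKM in cantharidin, against 831.7, 855.5 and 1016 FPKM in starvation (log2 -1.43 ± 0.10, adjusted p = 5.80e-08). The palmitoyl-CoA desaturase gene fat-5 had 5.98, 8.99 and 6.74 FPKM in cantharidin, 42.9, 41.4 and 81.3 FPKM in starvation and 1.76, 3.65 and 2.55 FPKM in the controls (log2 -2.72 ± 0.40, adjusted p = 1.20e-04). Its relative fat-7, a stearoyl-CoA desaturase gene, was low in both treatments, with 1.26, 0.252 and 0.161 FPKM in cantharidin, 0.911, 0.723 and 1.23 FPKM in starvation and 58.5, 58.9 and 46.3 FPKM in the controls, and was not called between them (log2 -0.39 ± 0.34, adjusted p = 0.449). The elongase gene elo-2 was higher, with 175.5, 173.6 and 153.0 FPKM in cantharidin, 61.6, 50.2 and 97.3 FPKM in starvation and 273.8, 277.9 and 326.4 FPKM in the controls (log2 1.30 ± 0.26, adjusted p = 0.00164). Fatty acid and retinol binding proteins were called in both directions, 5 higher and 5 lower of 16 (3 higher and 4 lower without starvation 3). The gene far-3 had 227.2, 266.4 and 113.3 FPKM in cantharidin, against 12, 16 and 32.7 FPKM in starvation (log2 3.29 ± 0.56, adjusted p = 4.71e-04). Its relative far-4 had 41.3, 32.5 and 34.2 FPKM in cantharidin, against 1.49, 4.97 and 2.53 FPKM in starvation (log2 3.30 ± 0.28, adjusted p = 4.50e-07). The gene far-7 was lower and had 75.1, 70.2 and 73.4 FPKM in cantharidin, 276.1, 337.7 and 323.0 FPKM in starvation and 8.29, 12.2 and 15 FPKM in the controls (log2 -2.08 ± 0.25, adjusted p = 1.64e-05).

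Of 37 genes of glycolysis, gluconeogenesis, trehalose and glycogen metabolism, 1 was called higher and 11 lower (3 higher and 7 lower without starvation 3). All genes had 14.3% higher and 10.3% lower, and the median of the list was log2 0.02. The gluconeogenic gene pck-2 had 372.2, 310.0 and 315.0 FPKM in cantharidin, 586.2, 727.1 and 784.7 FPKM in starvation and 401.7, 375.8 and 420.3 FPKM in the controls, highest in starvation (log2 -1.07 ± 0.12, adjusted p = 8.96e-06). The dehydrogenase gene gpd-3 had 319.3, 310.2 and 304.7 FPKM in cantharidin, against 477.5, 515.6 and 693.0 FPKM in starvation (log2 -0.83 ± 0.14, adjusted p = 3.08e-04). The hexokinase gene hxk-1, the first enzyme of glycolysis, was the 1 called higher, with 164.7, 130.1 and 175.2 FPKM in cantharidin, 65.2, 79.2 and 36.2 FPKM in starvation and 188.0, 186.9 and 109.3 FPKM in the controls (log2 1.42 ± 0.29, adjusted p = 0.00215). Cantharidin and control worms had like levels of it. Transporters of peptides, amino acids and sugars were called higher in 5 and lower in 9 of 60, a share near that of all genes. The sugar transporter gene swt-6 had 91.3, 63.6 and 105.4 FPKM in cantharidin, against 1.87, 1.49 and 3.08 FPKM in starvation (log2 4.80 ± 0.38, adjusted p = 2.12e-07). In the other direction the amino acid transporter gene slc-36.5 had 9.44, 9.88 and 7.41 FPKM in cantharidin, against 25.3, 27.4 and 29.2 FPKM in starvation (log2 -1.52 ± 0.16, adjusted p = 6.00e-06). The ammonium transporter gene amt-1 had 0.523, 1.15 and 0.54 FPKM in cantharidin, 49, 37.7 and 13.3 FPKM in starvation and 2.77, 8.19 and 9.53 FPKM in the controls (log2 -4.14 ± 0.44, adjusted p = 4.68e-06).

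Among the largest falls were those of the pud genes, a nematode family named for proteins that are abundant in long-lived daf-2 mutants. All 6 IDs tested were called lower, with a median of log2 -5.92 (0 higher and 6 lower without starvation 3). This family was singled out after its values had been seen. The gene pud-2.2 had 4.86, 5.19 and 7.62 FPKM in cantharidin, 526.6, 638.5 and 302.7 FPKM in starvation and 1387, 968.5 and 730.4 FPKM in the controls. Cantharidin alone was low (log2 -6.11 ± 0.62, adjusted p = 3.09e-06). For pud-4 the values were 0.195, 0.163 and 0.413 FPKM in cantharidin, 72, 82.5 and 71 FPKM in starvation and 250.1, 199.3 and 117.3 FPKM in the controls (log2 -5.92 ± 0.55, adjusted p = 1.28e-06). The genes pud-1.1 and pud-1.2, with differences of log2 -5.91 ± 0.64 (adjusted p = 5.79e-06) and -5.89 ± 0.62 (adjusted p = 4.71e-06), and the 2 IDs named pud-2.2 are near-identical copies between which reads may be shared. For pud-3 the difference was log2 -4.89 ± 0.68, adjusted p = 7.61e-05.

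Among genes of autophagy and the lysosome, the excess of higher calls in cantharidin lay in the V-ATPase subunits, the proton pump of the lysosome. Outside these subunits, higher and lower calls were close in number. Of 58 autophagy and lysosome genes, 21 were called higher and 7 lower (20 higher and 6 lower without starvation 3), against 14.3% and 10.3% of all genes. Within them, 14 of 20 V-ATPase subunits were called higher and 1 lower, with a median of log2 0.44 (15 higher and 1 lower without starvation 3). The subunit gene vha-12 had 232.3, 210.3 and 235.7 FPKM in cantharidin, 127.1, 123.6 and 148.1 FPKM in starvation and 229.9, 241.4 and 331.0 FPKM in the controls. Starved worms had the least, and cantharidin worms were close to control (log2 0.76 ± 0.13, adjusted p = 5.77e-04). For vha-13 the values were 319.7, 284.2 and 315.0 FPKM in cantharidin, against 194.5, 194.2 and 189.6 FPKM in starvation (log2 0.66 ± 0.10, adjusted p = 1.57e-04). The subunit gene vha-11 had 202.6, 198.1 and 194.8 FPKM in cantharidin, against 124.9, 118.3 and 143.8 FPKM in starvation (log2 0.62 ± 0.10, adjusted p = 1.95e-04). Against control, 0 V-ATPase subunits were called higher and 2 lower in cantharidin, with 31.9% of all genes higher and 5.96% lower, while 0 were higher and 16 lower in starvation, with 39.1% and 18.4%. The 1 member called lower, vha-6, is listed at 0 in cantharidin 3 and 9 and at 186.4 FPKM in cantharidin 1, and with such zeros treated as missing it was called higher, at log2 0.84. The selective autophagy receptor gene sqst-1 had 179.5, 150.8 and 193.9 FPKM in cantharidin, 93.7, 95.4 and 128.6 FPKM in starvation and 16, 20.5 and 26.1 FPKM in the controls (log2 0.72 ± 0.17, adjusted p = 0.00464), called higher in each treatment than in control; the difference between the treatments lost its call when only the 2 groups were fitted.

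Proteases were more often lower: of 24 cathepsin and aspartyl protease genes, 3 were called higher and 11 lower (4 higher and 8 lower without starvation 3). The aspartyl protease gene asp-14 had 9.02, 10 and 5.18 FPKM in cantharidin, 42, 34.1 and 69.4 FPKM in starvation and 70.7, 67.7 and 128.5 FPKM in the controls (log2 -2.43 ± 0.29, adjusted p = 1.70e-05). The cathepsin Z gene cpz-2 had 99.2, 112.1 and 85.4 FPKM in cantharidin, 221.7, 208.6 and 335.8 FPKM in starvation and 48, 45.2 and 85.5 FPKM in the controls (log2 -1.34 ± 0.27, adjusted p = 0.00191). The cathepsin B-like gene cpr-3 was higher, with 111.9, 101.0 and 129.7 FPKM in cantharidin, 8.43, 7.08 and 13.2 FPKM in starvation and 5.34, 5.77 and 12.3 FPKM in the controls (log2 3.48 ± 0.27, adjusted p = 2.06e-07). So was asp-12, with 12.9, 9.33 and 15.3 FPKM in cantharidin, against 0.984, 1.29 and 3.11 FPKM in starvation (log2 2.33 ± 0.27, adjusted p = 1.03e-05). Of 33 proteasome subunits, 2 were called higher and 1 lower, under the share of all genes, and under median-of-ratios scaling none was called in either direction. Against control, 29 were called lower in cantharidin (5.96% of all genes) and 29 in starvation (18.4% of all genes). Of 56 ubiquitin conjugation and removal genes, 10 were called higher and 4 lower as deposited, but 2 higher and 4 lower under median-of-ratios scaling. The share as deposited, 25%, lay near the 24.6% of all genes. The conjugating enzyme gene ubc-8 had 60.9, 73.8 and 59.1 FPKM in cantharidin, 103.1, 109.6 and 117.5 FPKM in starvation and 14.4, 18.7 and 20.7 FPKM in the controls (log2 -0.76 ± 0.13, adjusted p = 3.73e-04).

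Neuropeptide genes were lower in cantharidin than in starvation. Of 88 neuropeptide and neuronal genes, 0 were called higher (1 at an unadjusted p under 0.05) and 47 lower, with a median of log2 -0.57 (1 higher and 33 lower without starvation 3). Of the 31 FMRFamide-like peptide genes in this list, 0 were called higher and 24 lower (0 higher and 17 lower without starvation 3). At an unadjusted p under 0.05, 0 were higher and 27 lower. Both treatments were above control: 30 of 31 were called higher in cantharidin and 30 in starvation, with 31.9% and 39.1% of all genes higher and with medians of log2 1.10 and 1.78. Those values are to be read against medians over all genes of log2 0.34 for cantharidin and 0.38 for starvation, which became 0.04 and 0.11 under median-of-ratios scaling. The mean of the list in each library, relative to the controls, was 1.12, 1.26 and 0.83 in the cantharidin libraries, against 1.66, 1.59 and 2.12 in the starvation libraries. Starvation 3 was the highest of the 6. The gene flp-33 had 24.7, 25.8 and 20.7 FPKM in cantharidin, 63.7, 55.8 and 80.3 FPKM in starvation and 12, 17.4 and 19.6 FPKM in the controls (log2 -1.44 ± 0.19, adjusted p = 5.03e-05). For flp-3 the values were 32.7, 32.8 and 25.7 FPKM in cantharidin, against 74.4, 67.1 and 99.5 FPKM in starvation (log2 -1.36 ± 0.15, adjusted p = 8.65e-06). The gene flp-27 had 31.1, 34.5 and 27.3 FPKM in cantharidin, against 62.1, 60 and 93.2 FPKM in starvation (log2 -1.16 ± 0.18, adjusted p = 1.68e-04). Of the other neuropeptides, nlp-12, a cholecystokinin-like peptide gene, had 23, 30.3 and 27.4 FPKM in cantharidin, 75.5, 77.8 and 126.3 FPKM in starvation and 9.74, 11.6 and 18.1 FPKM in the controls (log2 -1.72 ± 0.25, adjusted p = 9.65e-05). For nlp-2 the values were 4.06, 5.56 and 5.76 FPKM in cantharidin, against 19.5, 21.7 and 19 FPKM in starvation (log2 -1.79 ± 0.22, adjusted p = 1.65e-05).

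Insulin-like peptides, ligands of the receptor DAF-2, were called higher in 3 and lower in 5 of 35. This share, 22.9%, lay near the 24.6% of all genes. The agonist gene ins-7 had 42.3, 55.2 and 41.9 FPKM in cantharidin, 23.6, 16.6 and 14 FPKM in starvation and 15, 20.4 and 13.5 FPKM in the controls, highest in cantharidin (log2 1.34 ± 0.21, adjusted p = 2.39e-04). By contrast ins-17 was lower and had 33.5, 37.6 and 30.1 FPKM in cantharidin, 62.4, 57.8 and 86 FPKM in starvation and 13.2, 14.4 and 19.2 FPKM in the controls (log2 -0.99 ± 0.16, adjusted p = 2.65e-04). Of 24 genes of the insulin, TOR and dauer pathways, 2 were called higher and 3 lower, a total share of 20.8%, also near that of all genes. The FOXO factor gene daf-16 had 109.2, 115.5 and 121.9 FPKM in cantharidin, 142.7, 134.3 and 172.1 FPKM in starvation and 73.3, 74.5 and 67.2 FPKM in the controls (log2 -0.36 ± 0.08, adjusted p = 0.00376); this call was lost when only the 2 groups were fitted. Nuclear hormone receptor genes were called higher in 17 and lower in 27 of 188, a total share near that of all genes. The receptor gene nhr-112 had 15.2, 12.2 and 18.5 FPKM in cantharidin, against 3.27, 2.13 and 5.79 FPKM in starvation (log2 1.84 ± 0.27, adjusted p = 1.20e-04). For nhr-116 the values were 2.35, 3.53 and 2.13 FPKM in cantharidin, against 9.1, 11.4 and 14.5 FPKM in starvation (log2 -1.79 ± 0.23, adjusted p = 3.16e-05). The long noncoding RNA tts-1, known from daf-2 mutants and dauer larvae, had 985.0, 1012 and 1068 FPKM in cantharidin, 1861, 2497 and 2713 FPKM in starvation and 50.7, 66.2 and 50.8 FPKM in the controls. Both treatments were far above control and starvation was above cantharidin (log2 -1.19 ± 0.19, adjusted p = 2.73e-04).

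Few genes of the phosphatases that cantharidin inhibits were called. Of 24 genes of PP1, PP2A and related phosphatases, 2 were called higher and 1 lower, under the share of all genes. The PP2A catalytic subunit gene let-92 had 233.5, 208.1 and 242.0 FPKM in cantharidin, 174.9, 182.8 and 180.8 FPKM in starvation and 266.5, 266.6 and 203.7 FPKM in the controls, just short of the threshold (log2 0.34 ± 0.12, adjusted p = 0.0501). Its scaffold gene paa-1 had 189.7, 143.6 and 212.9 FPKM in cantharidin, against 166.6, 187.3 and 175.8 FPKM in starvation (log2 0.03 ± 0.13, adjusted p = 0.909). The PP1 catalytic subunit gene gsp-1 had 189.9, 186.2 and 192.4 FPKM in cantharidin, against 175.0, 182.0 and 178.7 FPKM in starvation (log2 0.09 ± 0.06, adjusted p = 0.378). Its relative gsp-2 had 308.9, 259.0 and 308.4 FPKM in cantharidin, against 307.8, 328.6 and 329.6 FPKM in starvation (log2 -0.14 ± 0.09, adjusted p = 0.259). The 1 called lower was pptr-1, a PP2A regulatory subunit gene, with 58.9, 61.6 and 65.2 FPKM in cantharidin, against 72.2, 73.9 and 70.3 FPKM in starvation (log2 -0.22 ± 0.06, adjusted p = 0.0216), and its call was lost when only the 2 groups were fitted. The 2 called higher, pph-4.2 and szy-4, lost their calls without starvation 3, at log2 0.97, adjusted p = 0.0853 and log2 0.79, adjusted p = 0.102.

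The respiratory chain was lower in cantharidin by a small amount. Of 68 respiratory chain and ATP synthase genes, 2 were called higher and 48 lower, with a median of log2 -0.32 (0 higher and 45 lower without starvation 3); 44 were lower under median-of-ratios scaling and 41 under quantile normalization. The 2 called higher, cox-11 and cox-17, encode assembly factors of complex IV, with differences of log2 0.44 ± 0.14 (adjusted p = 0.0318) and 0.30 ± 0.09 (adjusted p = 0.0235); neither was called without starvation 3. The complex III gene ucr-2.1 had 154.7, 128.4 and 131.0 FPKM in cantharidin, 225.4, 233.2 and 246.3 FPKM in starvation and 119.9, 133.9 and 180.4 FPKM in the controls (log2 -0.77 ± 0.13, adjusted p = 3.06e-04). The ATP synthase gene asb-2 had 297.8, 268.5 and 260.4 FPKM in cantharidin, against 407.7, 431.1 and 456.8 FPKM in starvation (log2 -0.65 ± 0.13, adjusted p = 0.002). The complex I gene ndub-8 had 226.2, 202.6 and 186.6 FPKM in cantharidin, against 307.7, 308.3 and 322.8 FPKM in starvation (log2 -0.61 ± 0.09, adjusted p = 1.95e-04). No cantharidin library of these 3 genes reached the lowest starvation library. Against control, 0 were called higher and 58 lower in cantharidin (31.9% and 5.96% of all genes), and 8 higher and 24 lower in starvation (39.1% and 18.4% of all genes). Of 78 cytosolic ribosomal proteins, 0 were called higher (0 at an unadjusted p under 0.05) and 41 lower as deposited, with a median of log2 -0.26, but only 1 was lower under quantile normalization and 11 without starvation 3. The gene rpl-24.2 kept its call in both cases, with 225.8, 232.3 and 191.1 FPKM in cantharidin, against 296.8, 320.8 and 373.1 FPKM in starvation (log2 -0.61 ± 0.09, adjusted p = 1.38e-04). Mitochondrial ribosomal proteins were called higher in 9 and lower in 9 of 65, a total share of 27.7% near the 24.6% of all genes. Under median-of-ratios scaling the counts were 3 and 7. Translation and nucleolar genes were called higher in 13 and lower in 8 of 60, a split that turned to 3 and 9 under median-of-ratios scaling. The translation factor gene iff-2, an eIF5A orthologue, had 356.6, 335.0 and 336.5 FPKM in cantharidin, against 562.0, 551.8 and 826.7 FPKM in starvation (log2 -0.89 ± 0.22, adjusted p = 0.0075).

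**Figure D4:**
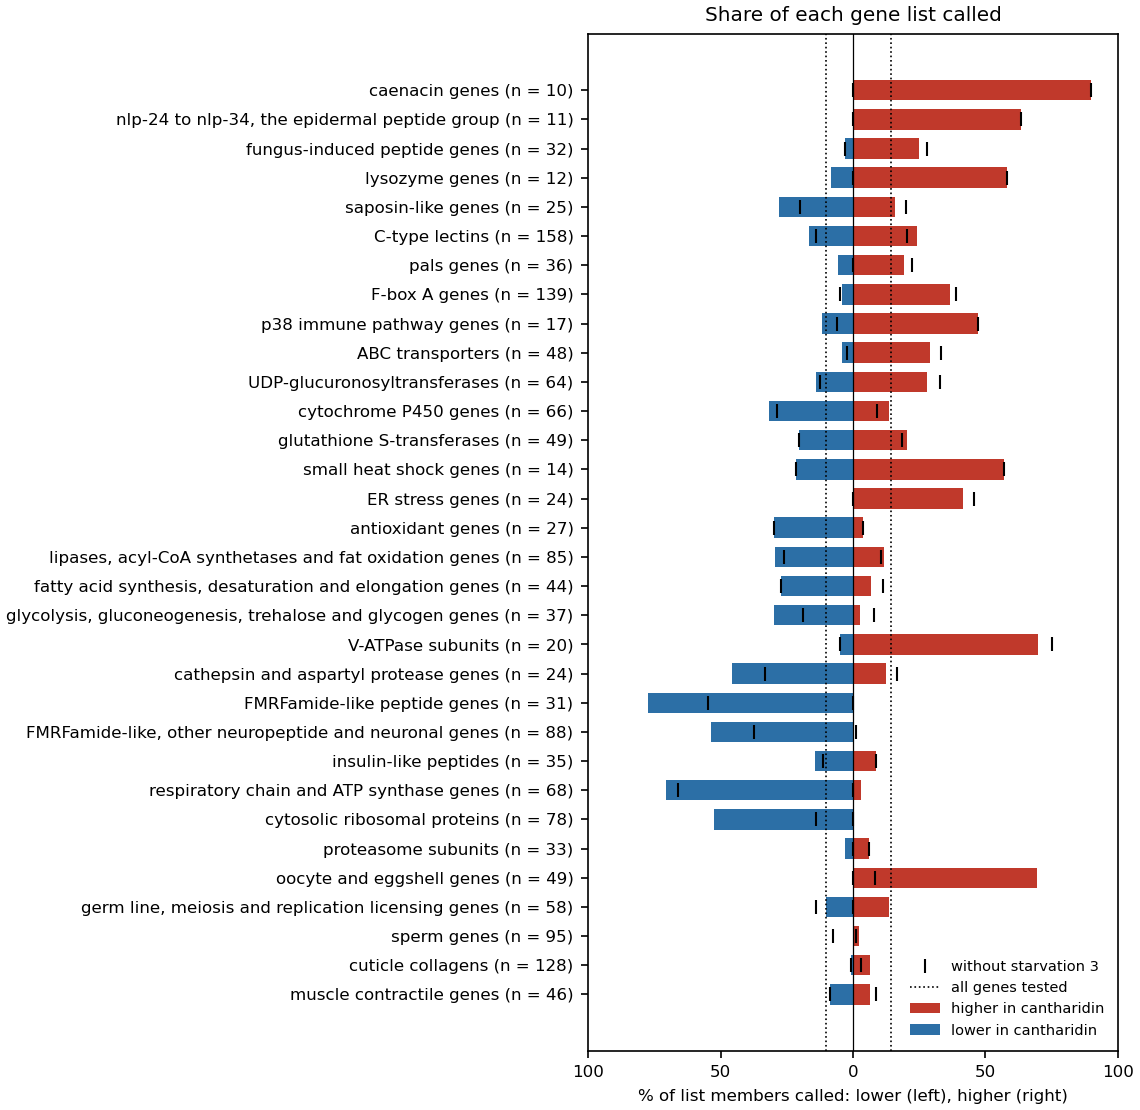
Share of the tested members of 32 gene lists that were called higher (red, to the right) or lower (blue, to the left) in cantharidin than in starvation, with black ticks for the shares without starvation 3 and dotted lines at the shares of all genes (14.3% higher, 10.3% lower). Caenacins, lysozymes and V-ATPase subunits lie mostly to the right and FMRFamide-like peptides and respiratory chain genes mostly to the left, with or without starvation 3; for oocyte and eggshell genes and for ribosomal proteins the ticks lie far inside the bars.

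For reproductive genes, the number of calls depended strongly on starvation 3. Of 49 oocyte and eggshell genes, 34 were called higher in cantharidin and 0 lower when all libraries were used. Leaving out starvation 3 left 4 higher and 0 lower. At an unadjusted limma p under 0.05, 36 were higher and 1 lower with all libraries, and 29 and 0 without starvation 3. The median difference was log2 1.77 with all libraries and 1.03 without starvation 3, so the direction of this list stayed. The mean of the list in each library, relative to the controls, was -0.17, -0.59 and 0.01 in the cantharidin libraries, against -1.25, -0.92 and -2.89 in the starvation libraries. All 3 starved libraries were below all 3 cantharidin libraries, and starvation 3 was the lowest by far. The oocyte maturation gene oma-2 had 205.2, 117.0 and 266.0 FPKM in cantharidin, 35.3, 60.3 and 8.84 FPKM in starvation and 362.1, 352.3 and 188.3 FPKM in the controls. It was log2 2.74 ± 0.65, adjusted p = 0.00612 with all libraries and log2 1.98, adjusted p = 0.0303 without starvation 3; the call was lost when only the 2 groups were fitted. The yolk receptor gene rme-2 had 200.4, 113.6 and 226.8 FPKM in cantharidin, against 53.6, 86.4 and 7.77 FPKM in starvation, at log2 2.32 ± 0.67, adjusted p = 0.0183 with all libraries and log2 1.33, adjusted p = 0.075 without starvation 3. The germ cell gene nos-2 had 78.2, 50.5 and 99.3 FPKM in cantharidin, against 16.1, 23.2 and 1.55 FPKM in starvation, at log2 2.86 ± 0.71, adjusted p = 0.00814 and log2 1.87, adjusted p = 0.0323 in the same order, and its call was lost with only the 2 groups. The sperm entry receptor gene egg-1 had 244.5, 163.7 and 282.8 FPKM in cantharidin, against 63.1, 103.9 and 4.58 FPKM in starvation (log2 2.75 ± 0.79, adjusted p = 0.0186) and was not called without that library (log2 1.46, adjusted p = 0.0597).

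The other reproductive lists also moved with starvation 3. The 6 vitellogenin genes, which encode yolk proteins, were 1 higher and 0 lower with all libraries and 0 and 0 without starvation 3. For vit-2 the values were 609.0, 343.6 and 686.0 FPKM in cantharidin, 1050, 1562 and 6.28 FPKM in starvation and 1939, 1806 and 1687 FPKM in the controls. Starvation 3 lay far below the other 8 libraries, and the difference was log2 1.20 ± 1.32, adjusted p = 0.565 with all libraries and log2 -1.29, adjusted p = 0.094 without starvation 3. The gene vit-6 had 444.6, 234.5 and 462.9 FPKM in cantharidin, against 571.1, 800.7 and 4.28 FPKM in starvation (log2 1.44 ± 1.26, adjusted p = 0.453). The mean of the vitellogenin list in each library, relative to the controls, was -4.07, -4.84 and -4.11 in the cantharidin libraries, against -4.71, -4.14 and -9.06 in the starvation libraries. Starvation 1 and 2 lay at the level of the cantharidin libraries and starvation 3 below all others, and the median difference between the treatments was log2 1.47 with all libraries and 0.23 without starvation 3. Of 95 sperm genes, 2 were called higher and 0 lower, with a median of log2 0.59. When starvation 3 was left out, 1 was higher and 7 were lower, with a median of log2 -0.68. Germ line, meiosis and replication genes were 8 higher and 6 lower of 58, a total share of 24.1% beside 24.6% of all genes. Under median-of-ratios scaling the counts were 3 and 6, and without starvation 3 they were 0 and 8. The piRNA factor gene prg-1 was lower in each of these fits, with 129.9, 126.4 and 126.2 FPKM in cantharidin, against 225.2, 216.9 and 189.8 FPKM in starvation (log2 -0.72 ± 0.07, adjusted p = 2.38e-06). The replication gene mcm-7 had 117.3, 77 and 150.2 FPKM in cantharidin, against 52.2, 68.8 and 37.7 FPKM in starvation (log2 1.09 ± 0.37, adjusted p = 0.043) and was not called without starvation 3 (log2 0.88, adjusted p = 0.142).

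**Figure D5:**
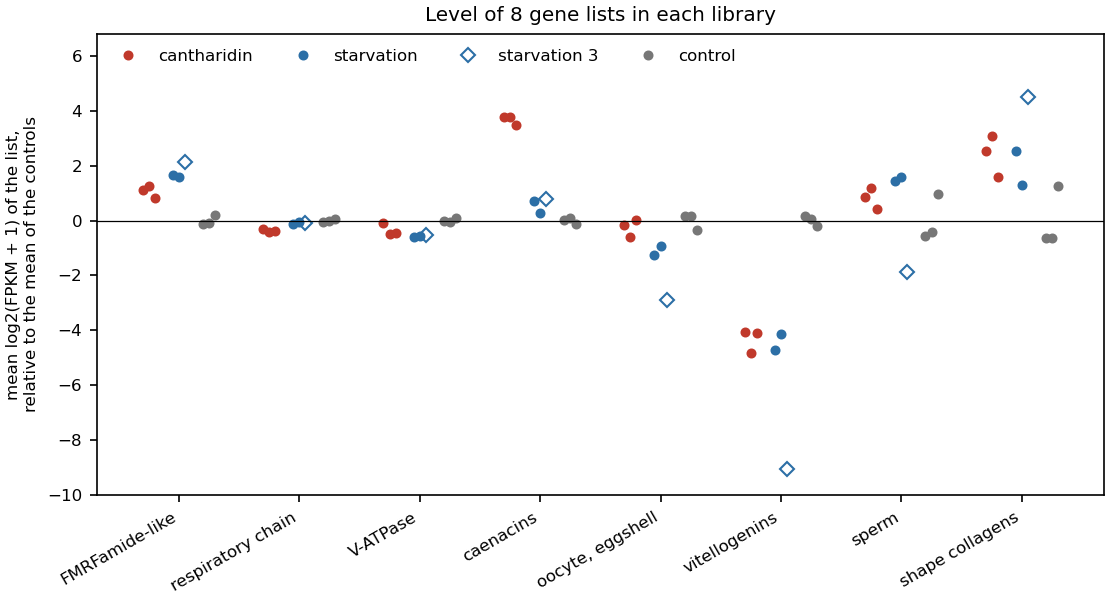
Mean log2(FPKM + 1) of 8 gene lists in each library, relative to the mean of the controls: cantharidin (red), starvation 1 and 2 (blue dots), starvation 3 (open diamond) and controls (grey). Starvation 3 lies near its group for the respiratory chain, V-ATPase and caenacin lists and far from it for the oocyte, vitellogenin, sperm and shape collagen lists, where it stands at -2.89, -9.06, -1.86 and 4.49.

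Few structural genes of the body wall were called. Of 128 cuticle collagens, 8 were called higher and 1 lower (4 higher and 1 lower without starvation 3), and of 25 furrow and other shape collagens none was called in either direction with or without starvation 3 (limma; 0 higher and 0 lower at an unadjusted p under 0.05 with all libraries, and 0 and 0 without). Their mean level relative to the controls was 2.53, 3.08 and 1.60 in the cantharidin libraries, against 2.52, 1.30 and 4.49 in the starvation libraries. All 6 libraries lay above the mean of the controls, and starvation 3 was the highest. The controls themselves stood at -0.62, -0.65 and 1.27, with control 7 apart from the others. The adult collagen gene col-19 had 1581, 1510 and 1296 FPKM in cantharidin, 1647, 1690 and 134.6 FPKM in starvation and 1798, 1908 and 2313 FPKM in the controls (log2 1.01 ± 0.61, adjusted p = 0.254). The 1 collagen called lower, col-153, had 12.4, 15.4 and 10 FPKM in cantharidin, against 33, 30.5 and 32.7 FPKM in starvation (log2 -1.30 ± 0.20, adjusted p = 2.18e-04). Of 46 muscle contractile genes, 3 were called higher and 4 lower. The myosin heavy chain gene unc-54 had 402.6, 419.5 and 315.5 FPKM in cantharidin, against 436.8, 447.4 and 441.6 FPKM in starvation and was not called (log2 -0.23 ± 0.14, adjusted p = 0.252). The light chain gene mlc-2 had 981.9, 924.7 and 910.2 FPKM in cantharidin, against 1304, 1427 and 1443 FPKM in starvation (log2 -0.57 ± 0.10, adjusted p = 7.87e-04). Hedgehog-related genes were called higher in 5 and lower in 4 of 68, and 5 and 9 under quantile normalization. Of 75 histone genes, 2 were called higher and 6 lower. The linker histone gene hil-1 had 20.1, 21.8 and 18.6 FPKM in cantharidin, 67.7, 94.8 and 144.6 FPKM in starvation and 9.09, 8.66 and 7.42 FPKM in the controls; starvation was the high group and the 3 groups did not overlap (log2 -2.22 ± 0.21, adjusted p = 1.20e-06).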

How the data were processed

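RNA of whole worms was read as TruSeq stranded mRNA libraries, per the labels. The deposited table gives FPKM per gene for 21 libraries, and the submitters' processing notes name CASAVA and Cufflinks without versions; genome build, read totals and read length are not given in the sources used here. Depth and counting error therefore enter only through the spread of 3 libraries a group. Relative depth was read from the steps of low FPKM values (190 pairs of libraries checked, tolerance 0.1 on the log2 scale). Of 46254 IDs, 43200 had a symbol in the annotation release 115 used for names.

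Genes at 1 FPKM or more in at least 3 libraries (17492) were taken as log2(FPKM + 1), which understates changes of low genes. One limma 3.58.1 model (R 4.3.3) was fitted to all 21 libraries in 7 groups, with a mean-variance trend (14 residual and 2.015 prior degrees of freedom), and tested on simulated data. Fold changes are cantharidin minus starvation ± SE. Adjusted p-values are limma's with Benjamini-Hochberg adjustment over all 17492 genes, 2-sided, and called means under 0.05. Groups were compared with control in the same fit; both comparisons share the control libraries. The Cufflinks assignment of reads between near-identical copies is not known, and strand use in it was not stated.

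Genes named are the 12 largest changes in each direction with a mean of at least 5 FPKM in either group and groups that do not overlap, up to 4 called members in the more common and 2 in the other direction of each list with the same minimum, and a list of well-known genes; a few others are named beside a count and were chosen after their values were seen. The members of the comparison, the gene lists and the well-known genes were chosen with earlier results of these data known. Alternatives were the pseudocount, the filter, the scaling, the libraries in the fit, array weights, the trend, zeros treated as missing, a block for the replicate number and leaving out each library. No sequences are shown.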

Additional observations from a re-analysis of the deposited data

How the results depend on the processing

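The count of 4301 called genes stayed within 1.5 times under another pseudocount, filter, scaling, trend and treatment of zeros. It moved by more than that under 3 planned settings of the model and on leaving out cantharidin 9, which was also planned (2711 calls). With only the 2 groups fitted, 1780 genes were called, 1008 higher and 772 lower. With array weights, 10294 were called, 5335 higher and 4959 lower; limma's default estimate of these weights did not converge, and its gene-by-gene method was used. With a replicate block for the shared replicate numbers, 1617 were called, 861 higher and 756 lower. The libraries of the same number had correlations of their deviations of -0.02 (number 1) and 0.01 (number 3). These 2 pairs are too few to tell whether the numbers pair the libraries. Leaving out 1 library gave 2711 to 4141 calls, 1472 to 2345 higher and 1239 to 1803 lower; the count was lowest without cantharidin 9, and without cantharidin 1 there were 1641 higher. Of 3 settings added after seeing the data, leaving out control 7 gave 4830 calls (2879 higher), median-of-ratios scaling without starvation 3 gave 3353, and the 2 groups alone without starvation 3 gave 2650 (1583 higher and 1067 lower). The cause was not tested.

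Of the same 155 named genes that were called, 137 kept their call in every planned setting and 139 with only the 2 groups. The log2 fold change turned its sign, mostly for genes not called, for vit-2 (-0.81 with array weights, -1.29 without starvation 3 in either fit, and -1.33 without it under median-of-ratios scaling), vit-6 (-0.40, -0.89 and -0.93 in the same order) and col-19 (-0.03, -0.19 and -0.24); leaving out 1 library reached 2.58, 2.73 and 1.63 for these at the other end. It also turned for fat-7 (0.10 with array weights), hsp-6 (-0.04 under median-of-ratios scaling without starvation 3), paa-1 (-0.02 under median-of-ratios scaling with or without starvation 3, and -0.09 to 0.19 on leaving out 1 library) and the called gene vha-6 (0.84 with zeros missing). Without read totals, the depth behind low values is unknown.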

Other observations

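Several further families differed between cantharidin and starvation, and they were chosen after their values had been seen. The nspc genes, a nematode-specific family of small secreted peptides, were lower in cantharidin: 0 of 18 were called higher and 17 lower, with a median of log2 -1.49 (0 higher and 17 lower without starvation 3). The gene nspc-16 had 64.8, 71.4 and 64 FPKM in cantharidin, 241.3, 271.2 and 337.4 FPKM in starvation and 66.9, 71.3 and 86.7 FPKM in the controls (log2 -2.06 ± 0.13, adjusted p = 2.89e-08), so that starved worms stood above both others. For nspc-18 the values were 16.4, 26.3 and 19.9 FPKM in cantharidin, 82.9, 100.2 and 166.0 FPKM in starvation and 30.5, 32 and 42.4 FPKM in the controls (log2 -2.38 ± 0.23, adjusted p = 1.60e-06). Heme-responsive genes named hrg were lower as well: 0 of 9 were called higher and 5 lower (0 higher and 4 lower without starvation 3). The heme importer gene hrg-1 had 73.8, 92.9 and 51.6 FPKM in cantharidin, 236.9, 241.3 and 323.7 FPKM in starvation and 45.5, 53.2 and 27.6 FPKM in the controls (log2 -1.89 ± 0.24, adjusted p = 3.09e-05), with starvation above both others. Of 12 aldehyde dehydrogenase genes, 0 were called higher and 7 lower (2 higher and 7 lower without starvation 3). The gene alh-1 had 274.2, 283.2 and 255.5 FPKM in cantharidin, 542.5, 662.6 and 614.7 FPKM in starvation and 253.1, 230.0 and 268.2 FPKM in the controls (log2 -1.16 ± 0.10, adjusted p = 5.92e-07). Cantharidin and control worms had like levels of it.

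The dod genes, known as targets downstream of DAF-16, were split in their layout: 6 of 10 were called higher and 1 lower. The gene dod-19 had 129.5, 150.7 and 141.0 FPKM in cantharidin, 8.1, 4.02 and 17 FPKM in starvation and 60.1, 78.6 and 255.2 FPKM in the controls, low in starvation alone (log2 3.91 ± 0.50, adjusted p = 3.36e-05). For dod-22 the values were 194.6, 155.5 and 155.6 FPKM in cantharidin, 8.31, 5.67 and 14.6 FPKM in starvation and 2.73, 4.3 and 16.1 FPKM in the controls, high in cantharidin alone (log2 4.09 ± 0.53, adjusted p = 3.51e-05). Lower in cantharidin was dod-3, with 4.83, 6.42 and 2.78 FPKM in cantharidin, 46.5, 53.7 and 154.0 FPKM in starvation and 14.5, 10.6 and 3.78 FPKM in the controls (log2 -3.75 ± 0.44, adjusted p = 1.18e-05). The gene dod-21 is listed at 0 in all starvation libraries and stood at 22, 15.8 and 10.5 FPKM in cantharidin. Vacuolar sorting genes were called higher in 13 and lower in 1 of 31 as deposited and in 2 and 1 under median-of-ratios scaling. The claudin-like gene clc-19 had 160.8, 101.0 and 190.3 FPKM in cantharidin, 0.475, 2.28 and 1.66 FPKM in starvation and 0.554, 3.48 and 11.9 FPKM in the controls (log2 5.97 ± 0.51, adjusted p = 4.82e-07). The gene srlf-34 had 304.6, 293.9 and 259.7 FPKM in cantharidin, 5.46, 2.4 and 3.55 FPKM in starvation and 1.62, 1.83 and 2.46 FPKM in the controls, with cantharidin alone above 10 FPKM (log2 5.95 ± 0.42, adjusted p = 9.01e-08).

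Some of the largest changes fell in genes with a sequence name only. The gene C17H12.8 had 660.6, 485.4 and 662.3 FPKM in cantharidin, 8.9, 5.73 and 16.6 FPKM in starvation and 17.2, 41.8 and 81.7 FPKM in the controls (log2 5.82 ± 0.57, adjusted p = 2.27e-06). Its near namesake C17H12.6 had 53.9, 39.6 and 44.1 FPKM in cantharidin, 0.201, 0.175 and 0.495 FPKM in starvation and 0.701, 1.07 and 2.83 FPKM in the controls (log2 5.18 ± 0.37, adjusted p = 9.54e-08), and both were high in cantharidin alone. For K11H12.4 the values were 158.7, 119.2 and 149.1 FPKM in cantharidin, 1.05, 0.369 and 0.233 FPKM in starvation and 5.41, 6.85 and 36 FPKM in the controls (log2 6.56 ± 0.45, adjusted p = 7.43e-08). The gene F33H12.7 had 137.1, 121.7 and 180.7 FPKM in cantharidin, 0.897, 0.662 and 0.627 FPKM in starvation and 0.174, 0.632 and 7.66 FPKM in the controls (log2 6.40 ± 0.49, adjusted p = 1.53e-07). In the other direction T26H5.8 had 0.896, 2.04 and 0.707 FPKM in cantharidin, 17.2, 16.5 and 33.7 FPKM in starvation and 0.302, 0.394 and 0.118 FPKM in the controls (log2 -3.38 ± 0.30, adjusted p = 8.94e-07), high in starvation alone, while F45D11.14 had 0.463, 1.12 and 0.508 FPKM in cantharidin, 29.4, 28.8 and 50.9 FPKM in starvation and 52.8, 32.2 and 36 FPKM in the controls (log2 -4.43 ± 0.45, adjusted p = 3.23e-06), low in cantharidin alone. The noncoding RNA F27C1.18 is listed at 0 in all starvation and control libraries and stood at 215.5, 91.0 and 116.1 FPKM in cantharidin. Its difference had a wide error (log2 7.05 ± 1.15, adjusted p = 3.02e-04). By biotype, 14.8% of 16022 protein coding genes were called higher and 10.7% lower. Of 88 snoRNA genes 10 were called higher and 1 lower. These shares, 11.4% and 1.14%, lay below the 14.3% and 10.3% of all genes. FPKM are relative to transcript length, so in short RNAs a few fragments may give a high value. Fragment counts are not among the values analysed here.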
